A study of Mus musculus with 3 samples.

Results

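Edn2, Ednrb, Lif, Lifr, Osmr, Il6st, Stat3, Socs3 and Fgf2 are the 9 genes described here, out of 18545 genes counted in a single-cell RNA-seq (scRNA-seq) experiment on mouse retina. They were taken by name as a signalling route with ligands in photoreceptors and glia and with receptors and effectors in Müller glia (MG), and all 9 were present in the expression matrix. The experiment asked how retinal cells of the rd10 mouse, which loses its rods through a mutation in the rod phosphodiesterase gene Pde6b, differ from wild type (WT) and whether a drug combination given in chow, tamsulosin, metoprolol and bromocriptine (TMB), moves them. The 3 libraries came from C57BL/6J mice of 8 weeks that were kept in darkness for life, which slows the rod loss in rd10. The WT library pooled 2 female and 2 male mice on base chow, the rd10-vehicle library pooled female rd10 mice on the same base chow, and the rd10-TMB library pooled female rd10 mice on chow with the 3 drugs. Each group is therefore 1 pooled library with no replicate, and no difference between groups could be tested. Library and genotype cannot be told apart between WT and rd10, and the pools also differed in their make-up of sexes. The labels give 4 mice for each pool, while the methods of the study give a smaller number for the rd10 pools.

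Photoreceptors under stress are known to release endothelin 2, the peptide encoded by Edn2, which binds the endothelin B receptor (Ednrb) on glia. Leukemia inhibitory factor (LIF) is a cytokine of the IL-6 family made by MG in injured retina. It binds a pair of chains, the LIF receptor (Lifr) and the shared signalling chain gp130 (Il6st), and the oncostatin M receptor (Osmr) is another partner of gp130. Receptor-bound JAK kinases then phosphorylate STAT3, which moves to the nucleus and switches on genes that include its own inhibitor, SOCS3, while basic fibroblast growth factor (Fgf2) is a survival factor for photoreceptors. Phosphorylation was not measured, so what follows describes RNA and not pathway activity.

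The WT library held 4478 cells, the rd10-vehicle library 5952 and the rd10-TMB library 4812, with median totals of 3509.5, 4811.5 and 4772.5 unique molecular identifiers (UMIs, each standing for 1 captured RNA molecule) per cell. Cell classes are named "-like" from marker lists, a marker being met when its level in the cluster reached 20 CPM and 2 times that in the remaining cells. The MG-like class met 12 of 12 MG markers and held 530, 2492 and 1748 cells in WT, rd10-vehicle and rd10-TMB, and the rod-like class met 11 of 11 rod markers and held 1180, 556 and 746 cells. The cone-like class met 10 of 10 cone markers, but also 5 of 11 rod markers, and held 278, 542 and 412 cells. The endothelial-like class met 8 of 8 endothelial markers and also 9 of 9 pericyte markers, and the ON cone bipolar-like class met 5 of 7 markers, with 0 of them among its 10 leading genes. MG-like cells were deeper in rd10, with median totals of 6300.0, 8593.5 and 9454.5 UMIs, and 7 to 10 cell barcodes were shared between any 2 libraries. Levels are given as counts per 1000000 UMIs (CPM), that is, the UMIs of a gene summed over the cells of a class in a library, relative to all UMIs of those cells. Brackets give exact 95% intervals, which cover counting error only and not the variation between mice. A gene was called higher or lower in a class when its ratio reached 1.5-fold and it had at least 20 UMIs over both libraries, so a call describes a pair of libraries and is not a test. The reads sit at the 3′ end of transcripts, and levels are compared between cells and libraries, not between genes.

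**Figure D1:**
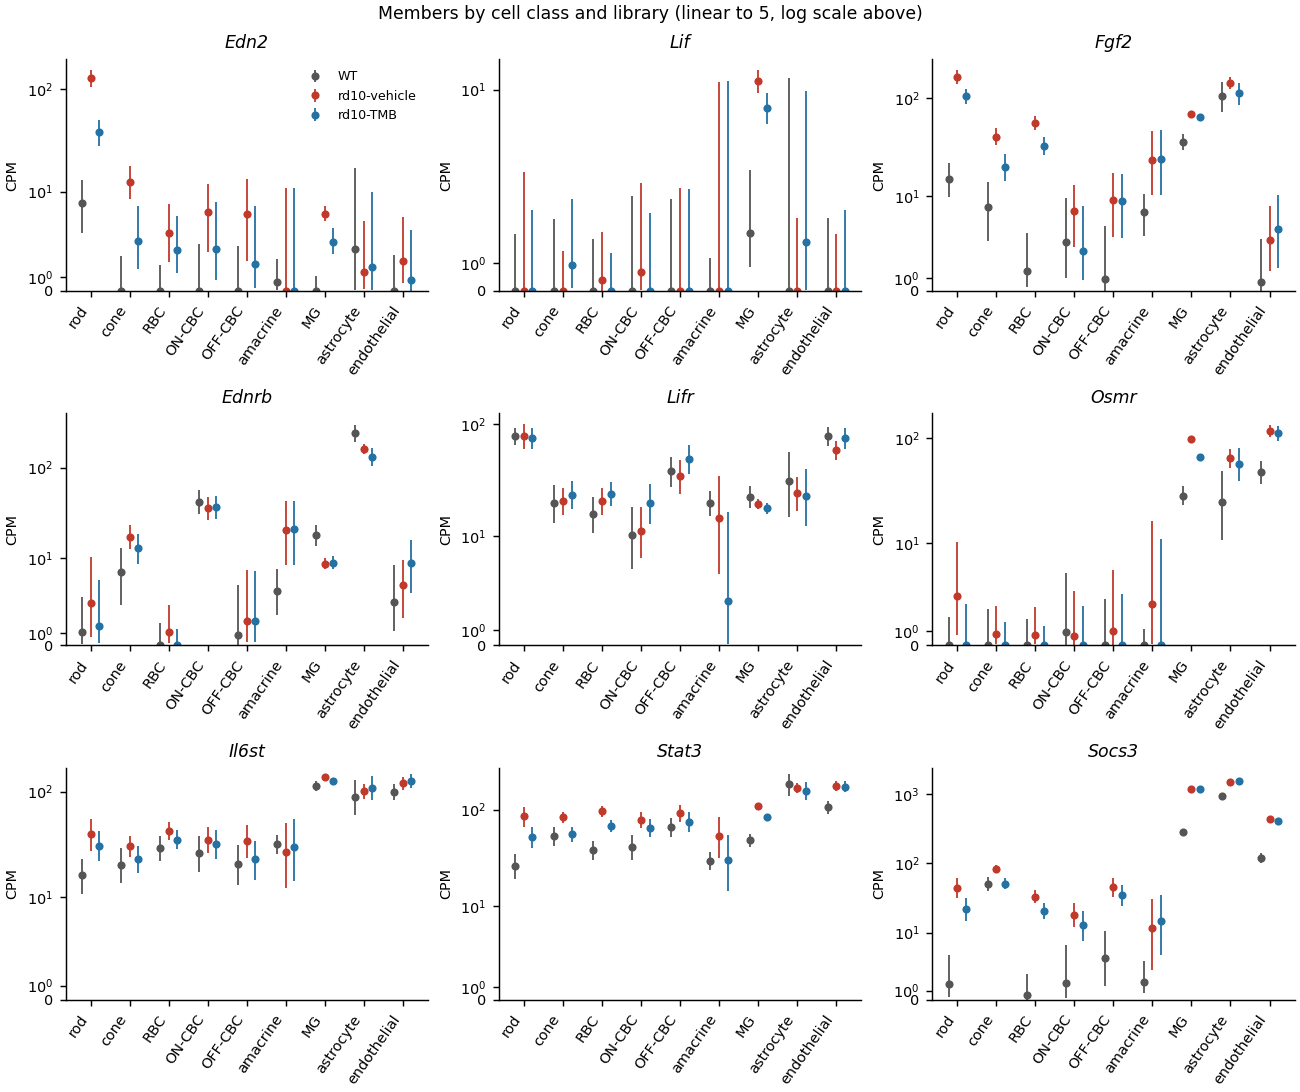
Levels of the 9 genes in CPM (vertical axis, linear up to 5 CPM and logarithmic above) in rod-, cone-, RBC-, ON and OFF cone bipolar (CBC)-, amacrine-, MG-, astrocyte- and endothelial-like cells of the WT, rd10-vehicle and rd10-TMB libraries, with exact 95% counting intervals. Of the classes plotted, Edn2 was highest in rods in all 3 libraries, Lif was seen mostly in MG, and rod Stat3 stood at 26.1, 84.8 and 51.4.

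Of the 10 classes with at least 50 cells in each library, Edn2 had its highest level in rods in all 3 libraries. In rod-like cells it gave 14, 109 and 48 UMIs in WT, rd10-vehicle and rd10-TMB, which correspond to 7.79 CPM [4.26 to 13.1], 127 [104 to 153] and 38.0 [28.0 to 50.4]. The 3 intervals did not overlap, with rd10-vehicle highest and WT lowest. On the log2 scale, rd10-vehicle exceeded WT by 3.94 [3.22 to 4.94], rd10-TMB exceeded WT by 2.22 [1.40 to 3.26], and rd10-TMB was below rd10-vehicle with a log2 ratio of −1.72 [−2.26 to −1.23]. An Edn2 UMI was found in 1.10% of WT rods, 16.2% of rd10-vehicle rods and 6.3% of rd10-TMB rods. With every cell thinned to 1000 UMIs, which left out 226, 68 and 80 shallower rods, the shares were 0.524%, 10.0% and 3.45%. RBC-like cells, which are deeper (median totals of 5032, 3638 and 4310 UMIs against 1423, 1406 and 1536 in rods) and served as the background class, had an Edn2 UMI in 0%, 1.51% and 1.24% of cells. In both rd10 libraries the share of rods was above that of the background class. In WT the 0 of 405 RBC-like cells allows a share of up to 0.741%, taken as 3 cells. That is within the interval of the WT rods [0.588% to 1.88%], so that the shares could not be told apart. The level of WT rods was above 1.88 CPM, the upper end of the exact interval of RBC-like cells. Rods held 73.7% of the 19 Edn2 UMIs of the WT library. Among all genes tested in rod-like cells, 8.29% were called higher for rd10-vehicle over WT, 6.42% higher for rd10-TMB over WT and 7.74% lower for rd10-TMB over rd10-vehicle.

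Outside the rods, Edn2 was sparse in rd10 and had 0 UMIs in the cone-, MG-, RBC- and ON cone bipolar-like cells of WT. Cone-like cells had 0, 32 and 8 Edn2 UMIs in WT, rd10-vehicle and rd10-TMB. The rd10-vehicle cones, at 12.5 CPM, were at least 5.93-fold above the limit that 0 UMIs allows in WT, taken as 3 UMIs per library, and rd10-TMB was below rd10-vehicle with a log2 ratio of −1.64 [−3.09 to −0.61]. In cones with at most 10% mitochondrial UMIs, and in cones thinned to 1000 UMIs, Edn2 of rd10-vehicle and WT had fewer than 20 UMIs together and could not be called. MG-like cells had 0, 136 and 60 Edn2 UMIs, or 0, 6.13 and 3.58 CPM, at least 6.78-fold above that limit in rd10-vehicle and at least 3.96-fold in rd10-TMB. The MG-like cells of rd10-vehicle held 43.5% of all Edn2 UMIs of their library against 34.8% in the rods, although MG-like cells held 59.99% of all UMIs.

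Rod RNA was also present in the classes where Edn2 was low. Per 1000 UMIs of the 11 rod markers, the rd10-vehicle library had 2.15 Edn2 UMIs in rod-like cells, 3.91 in MG-like cells, 0.895 in cone-like cells, 2.08 in ON cone bipolar-like cells and 6.997 in rod bipolar cell (RBC)-like cells. All 11 rod markers were seen in MG-like cells, where their summed level was 1078, 1568 and 1692 CPM in WT, rd10-vehicle and rd10-TMB. The part of rod RNA in the Edn2 counts of MG-like and bipolar cells was not tested.

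Edn2 starts at position 120161206 of chromosome 4 and runs on the plus strand to 120167360 (GRCm38.p6). The 250 bases before its RefSeq start, chr4:120160956-120161205, are shown because Edn2 had the largest log2 ratio of rd10-vehicle over WT of the ligands called in rods. They hold no copy of the palindromic STAT motif TTCNNNGAA.

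Edn2 upstream: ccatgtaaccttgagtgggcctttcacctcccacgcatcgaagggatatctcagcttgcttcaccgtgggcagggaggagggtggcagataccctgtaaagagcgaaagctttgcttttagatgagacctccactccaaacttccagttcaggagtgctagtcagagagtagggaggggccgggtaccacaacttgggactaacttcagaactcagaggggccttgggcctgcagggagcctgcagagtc

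**Figure D2:**
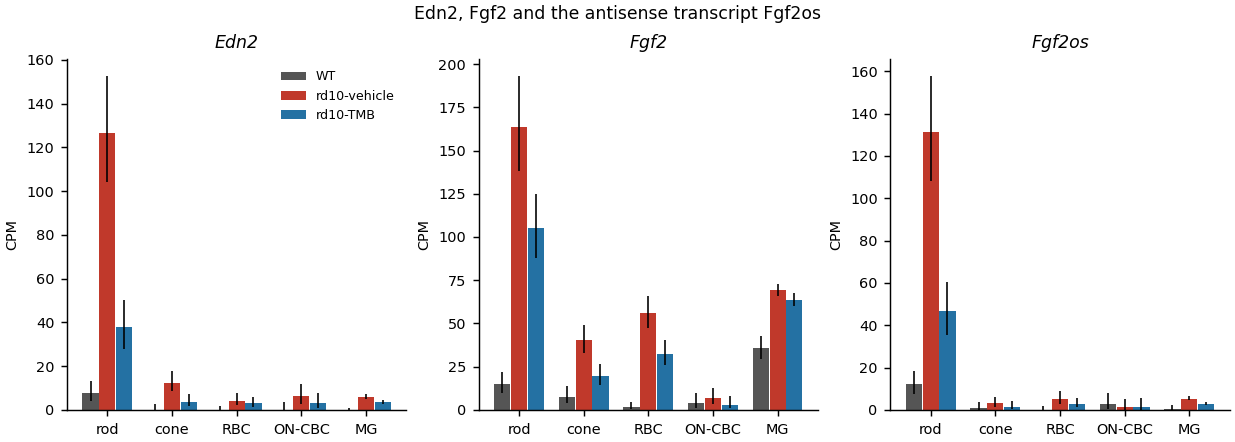
Levels of Edn2, Fgf2 and the antisense transcript Fgf2os (bars, CPM) in rod-, cone-, RBC-, ON cone bipolar (CBC)- and MG-like cells of the 3 libraries, with exact 95% counting intervals. Rod-like Edn2 stood at 7.79, 127 and 38.0 in WT, rd10-vehicle and rd10-TMB, and Fgf2os had the same order in rods at 12.2, 131 and 46.7.

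Fgf2 was higher in rd10 in photoreceptors, RBCs, amacrine cells and MG. In rod-like cells it gave 27, 141 and 133 UMIs in WT, rd10-vehicle and rd10-TMB, or 15.02, 164 and 105 CPM. Both rd10 libraries lay far above WT, with log2 ratios of 3.41 [2.85 to 4.10] and 2.77 [2.20 to 3.46], and rd10-TMB lay below rd10-vehicle by −0.64 [−0.99 to −0.29]. In cone-like cells, Fgf2 stood at 7.72, 40.5 and 19.8 CPM, with log2 ratios to WT of 2.28 [1.49 to 3.44] in rd10-vehicle and 1.27 [0.38 to 2.46] in rd10-TMB and a log2 ratio of −1.02 [−1.58 to −0.51] between the 2 rd10 libraries. In thinned cones, Fgf2 of rd10-TMB and WT had fewer than 20 UMIs together and could not be called. Among all genes in cone-like cells, 6.23% were called higher for rd10-vehicle over WT, 5.27% higher for rd10-TMB over WT and 5.19% lower for rd10-TMB over rd10-vehicle.

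RBC-like cells, the interneurons that collect rod signals, had the largest Fgf2 ratio of the classes that could be called. They held 3, 146 and 88 Fgf2 UMIs, or 1.53, 55.8 and 32.6 CPM, in WT, rd10-vehicle and rd10-TMB. The log2 ratio to WT was 4.79 [3.62 to 7.49] in rd10-vehicle and 4.02 [2.82 to 6.72] in rd10-TMB, with 7.09% and 5.82% of all genes called higher in these comparisons. Both intervals overlapped those of rods, so the order of the 2 classes was within counting error. With 3 UMIs in WT, the minimum count was passed through the rd10 counts. ON cone bipolar-like cells of the same libraries had only 4, 10 and 4 Fgf2 UMIs, and 1.04%, 1.996% and 1.01% of them had an Fgf2 UMI against 0.741%, 16.7% and 11.7% of RBC-like cells. The summed level of MG markers in RBC-like cells was 117, 487 and 330 CPM, and its part in the Fgf2 counts was not tested.

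In MG-like cells, Fgf2 gave 119, 1540 and 1070 UMIs, or 35.8, 69.4 and 63.8 CPM. The log2 ratio to WT was 0.94 [0.68 to 1.23] in rd10-vehicle and 0.82 [0.56 to 1.12] in rd10-TMB, and the 2 rd10 libraries differed by −0.12 [−0.24 to −0.01]. Both calls ended when cells were thinned to 1000 UMIs, at 0.53 and 0.24. The MG-like ratio was thus smaller than that of rods, cones and RBCs, and the interval of rd10-vehicle over WT was clear of theirs. Amacrine-like cells held 21, 8 and 8 Fgf2 UMIs, or 6.83, 23.6 and 23.8 CPM, with log2 ratios of 1.89 [0.40 to 3.02] and 1.90 [0.42 to 3.03] to WT, where 15.6% and 16.5% of all genes were called higher. Astrocyte-like cells had 105, 142 and 112 CPM, and their log2 ratios of 0.40 and 0.07 to WT did not reach the 1.5-fold limit.

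Of the genes in the matrix, 2 overlap Fgf2, both on the opposite strand. Fgf2 runs on the plus strand of chromosome 3 from 37348477 to 37410106 and overlaps the antisense RNA Fgf2os over 1395 bases and Nudt6, which encodes a Nudix hydrolase, over 5199 bases. Counting was done with default settings of Cell Ranger, which for 3′ libraries count reads on the strand of the gene, so reads of the opposite strand were assigned apart from those of Fgf2. Outside the matrix, Gm42923 overlaps Fgf2 on the opposite strand over 2896 bases and Gm43439 on the same strand over 56521 bases. Strand does not set Gm43439 apart from Fgf2, and its part in the Fgf2 counts was not tested. Fgf2os gave 22, 113 and 59 UMIs in rod-like cells, or 12.2, 131 and 46.7 CPM, with a log2 ratio of −1.48 [−1.97 to −1.03] of rd10-TMB over rd10-vehicle against −0.64 for Fgf2. Nudt6 gave 12, 22 and 9 UMIs there, or 6.67, 25.6 and 7.12 CPM. In RBC-like cells, where Fgf2 had its largest ratio, Fgf2os had 0, 14 and 8 UMIs.

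Edn2 and Fgf2os had similar patterns. Over 30 profiles (10 classes in 3 libraries), Fgf2os was the gene most like Edn2, with a Pearson r of 0.95 between their log2 levels after adding 10 CPM. These profiles share libraries and depth, and the correlation is a description without a test. Fgf2os was seen in 32.2% of the 90 rods with an Edn2 UMI in rd10-vehicle and in 12.9% of the rods without one. In rd10-TMB the shares were 21.3% and 5.44%, and in WT 30.8% of 13 cells and 1.11%. Rods with an Edn2 UMI were also deeper, with a median of 1620.5 UMIs against 1387 in rd10-vehicle and 1955 against 1521 in rd10-TMB, and the part of depth in these shares was not tested.

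Lif was a ligand of the MG. It gave 7, 243 and 137 UMIs in MG-like cells of WT, rd10-vehicle and rd10-TMB, which were 100%, 98.4% and 95.8% of all Lif UMIs of the libraries. The levels were 2.11 [0.848 to 4.34], 10.9 [9.61 to 12.4] and 8.17 [6.86 to 9.65] CPM, so that both rd10 libraries lay above the WT interval and their own intervals overlapped slightly. On the log2 scale, rd10-vehicle exceeded WT by 2.19 [1.31 to 3.71] and rd10-TMB exceeded WT by 1.77 [0.87 to 3.29], while rd10-TMB over rd10-vehicle was −0.42 [−0.74 to −0.11] and did not reach the 1.5-fold limit. With cells thinned to 1000 UMIs, that last ratio was −1.85 and passed the limit, on 1.01% and 0.290% of cells with a Lif UMI. Rod-like cells had 0 Lif UMIs in all 3 libraries, which allows up to 1.67, 3.49 and 2.37 CPM.

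Few MG-like cells carried a Lif UMI, 4 WT cells (0.755%), 114 rd10-vehicle cells (4.57%) and 72 rd10-TMB cells (4.12%). In rd10-vehicle, these cells had 169 CPM of Osmr against 93.8 in the other MG-like cells, 165 of Stat3 against 106, and 1288 of Socs3 against 1174. In rd10-TMB, the cells with a Lif UMI had 84.6 of Osmr against 64.9 and 119 of Stat3 against 81.2, but less Socs3, 1046 against 1184. Osmr and Stat3 were thus higher in Lif-positive cells in both rd10 libraries, whereas Socs3 went opposite ways, and these differences between cells of 1 library were not tested. The Lif-positive cells were deeper, with medians of 9775 against 8537.5 UMIs and 11535.5 against 9376.

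Ednrb, the receptor of endothelins on glia, was the 1 member called lower in the MG-like cells of rd10. It gave 59, 192 and 149 UMIs, or 17.8, 8.65 and 8.88 CPM in WT, rd10-vehicle and rd10-TMB. The log2 ratios to WT were −1.06 [−1.47 to −0.59] in rd10-vehicle and −1.02 [−1.44 to −0.54] in rd10-TMB, and the 2 rd10 libraries differed by 0.04 [−0.28 to 0.35]. Of all genes in MG-like cells, 12.4% and 11.7% were called lower in rd10-vehicle and rd10-TMB than in WT. As a count, 1 lower member of 9 was thus near the background. Astrocyte-like cells, the other glia of the retina, had the highest Ednrb level of all classes, 241, 161 and 131 CPM, and were also lower in rd10, with log2 ratios of −0.60 [−0.96 to −0.19] and −0.87 [−1.35 to −0.40]. This class held only 20, 88 and 33 cells, and 20.7% and 19.6% of all its genes were called lower in rd10-vehicle and rd10-TMB than in WT. Ednrb had 41.9, 35.7 and 36.8 CPM in ON cone bipolar-like cells, where the libraries differed by less than 1.5-fold.

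Ednrb was called higher than in WT in cone-like and amacrine-like cells. In cone-like cells it gave 10, 44 and 28 UMIs, with a log2 ratio of 1.18 [0.28 to 2.45] in rd10-vehicle over WT and of 0.79 [−0.21 to 2.08] in rd10-TMB over WT. In amacrine-like cells it gave 14, 7 and 7 UMIs, or 4.55, 20.6 and 20.8 CPM, with log2 ratios of 2.27 [0.63 to 3.58] and 2.29 [0.64 to 3.6], in a class where 15.6% and 16.5% of all genes were called higher than in WT. Nearly all of the amacrine UMIs came from 1 of the 2 amacrine-like clusters, with 13, 7 and 7 UMIs against 1, 0 and 0 in the other cluster, and the first cluster held 461 cells in WT and 43 and 35 in the rd10 libraries. The unnamed cluster 10, which shares markers of ON cone bipolar and amacrine cells, was called lower in rd10-vehicle than in WT on 3 and 23 UMIs, with a log2 ratio of −0.72 [−3.46 to 0.65] and 13% of all genes called lower. MG markers summed to 329, 782 and 726 CPM in cone-like cells and to 831, 1058 and 949 in amacrine-like cells, and their part in these ratios was not tested.

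Lifr, the LIF-binding chain, was within the 1.5-fold limit in rods and MG and was called in a few other neuronal classes. Rod-like cells had 77.9, 77.8 and 74.4 CPM in WT, rd10-vehicle and rd10-TMB, with log2 ratios to WT of 0.01 and −0.06. In MG-like cells it gave 75, 433 and 300 UMIs, or 22.6, 19.5 and 17.9 CPM, with log2 ratios of −0.23 [−0.57 to 0.16] and −0.35 [−0.71 to 0.05]. With cells thinned to 1000 UMIs, the MG-like ratio of rd10-vehicle over WT was −0.65 and passed the limit. Lifr was called higher for rd10-TMB over WT in RBC-like cells, at 0.59 [−0.03 to 1.28]. So it was in ON cone bipolar-like cells, at 0.89 [−0.11 to 2.12], where 5.55% of all genes were called higher. In ON cone bipolar-like cells it was also called higher for rd10-TMB over rd10-vehicle, at 0.80 [−0.12 to 1.83], with 5.01% of all genes. These 3 intervals included 0. In amacrine-like cells, Lifr was called lower for rd10-TMB over WT on 1 and 61 UMIs, at −1.76 [−8.06 to −0.21], with 12% of all genes called lower.

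Osmr, by contrast, was a receptor of MG, endothelium and astrocytes and was higher in rd10 in each of them. In MG-like cells it gave 94, 2186 and 1108 UMIs, or 28.3 [22.9 to 34.6], 98.5 [94.4 to 103] and 66.0 [62.2 to 70.0] CPM. The 3 intervals were apart, with rd10-TMB between WT and rd10-vehicle. The log2 ratios were 1.78 [1.5 to 2.11] for rd10-vehicle over WT, 1.21 [0.92 to 1.54] for rd10-TMB over WT and −0.58 [−0.68 to −0.47] for rd10-TMB over rd10-vehicle, the last just inside the 1.5-fold limit. It passed the limit at −0.68 as a mean over cells, at −0.60 without the 5% of cells with the most UMIs and at −0.59 in thinned cells. The share of MG-like cells with an Osmr UMI was 14.3%, 48.1% and 37.5%, and 2.28%, 8.52% and 5.44% with cells thinned to 1000 UMIs.

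Endothelial-like cells had 47.3, 117 and 110 CPM of Osmr, with log2 ratios of 1.29 [0.90 to 1.73] for rd10-vehicle over WT, of 1.21 for rd10-TMB over WT and of −0.08 between the 2 rd10 libraries. Of all genes in endothelial-like cells, 8.23% and 8.04% were called higher in rd10-vehicle and rd10-TMB than in WT. The 9 pericyte markers summed to 5930, 9153 and 9468 CPM in these cells, and their part in the Osmr level was not tested. The lower Osmr level of rd10-TMB against rd10-vehicle seen in MG-like cells was thus not seen in endothelial-like cells, although the difference between the classes was not tested. Astrocyte-like cells had 24.7, 64.0 and 56.8 CPM, and 9.68% and 7.62% of their genes were called higher than in WT. The few pericyte-like cells, 20, 25 and 22, had 1, 11 and 10 Osmr UMIs, or 15.1, 118 and 137 CPM. The few RPE-like cells had the highest Osmr level in each library, on 8, 37 and 17 UMIs. Osmr was almost absent from the rod-, cone-, bipolar- and amacrine-like classes, at 3.49 CPM or less, and MG-like cells held 52.5%, 85.3% and 84.5% of all Osmr UMIs.

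Il6st, the shared signalling chain, was near its WT level in MG. It gave 374, 3030 and 2115 UMIs in MG-like cells, or 113, 136 and 126 CPM, and its log2 ratios to WT of 0.27 [0.12 to 0.44] and 0.16 [0.00 to 0.32] did not reach the 1.5-fold limit. Endothelial-like cells had similar levels of 99.6, 120 and 126. In rod-like cells the levels were lower but the ratios larger, with 29, 34 and 39 UMIs, or 16.1, 39.5 and 30.9 CPM, and log2 ratios of 1.29 [0.53 to 2.06] and 0.92 [0.21 to 1.68]. Of the 3 receptor chains of LIF and its relatives, only Osmr was therefore called in MG-like cells at full depth. Of all genes there, 9.78% and 7.88% were called higher in rd10-vehicle and rd10-TMB than in WT. A count over 3 genes is too small to be read against these shares.

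Stat3, the transcription factor of the route, was higher in rd10-vehicle across the retina. In MG-like cells it gave 159, 2424 and 1400 UMIs, or 47.9, 109 and 83.4 CPM, with log2 ratios of 1.18 [0.96 to 1.43] for rd10-vehicle over WT, 0.79 [0.56 to 1.05] for rd10-TMB over WT and −0.39 [−0.48 to −0.29] for rd10-TMB over rd10-vehicle. Of the 10 classes with at least 50 cells in each library, it was called higher in 9 for rd10-vehicle over WT, with OFF cone bipolar-like cells at 0.47 below the limit, and in 6 for rd10-TMB over WT, with OFF cone bipolar-like, amacrine-like, cone-like and cluster 6 cells at 0.06 to 0.33. The share of all genes called higher in that comparison ranged widely over these classes, with 6.05% in ON cone bipolar-like cells, 6.28% in OFF cone bipolar-like cells, 8.49% and 17.6% in the unnamed clusters 6 and 10, and the shares given for the other classes. For rd10-TMB over WT the share was 5.44% in OFF cone bipolar-like cells and 8.15% and 10% in clusters 6 and 10.

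Rod-like cells had the largest Stat3 ratio to WT in rd10-vehicle, with 26.1, 84.8 and 51.4 CPM and log2 ratios of 1.69 and 0.97 to WT and −0.72 between the rd10 libraries. RBC-like cells had 38.2, 95.6 and 67.4, and cone-like cells had 53.3, 83.4 and 55.7, so that the rd10-TMB cones were near WT at a log2 ratio of 0.06. Endothelial-like cells stayed at 176 and 173 in the 2 rd10 libraries against 105 in WT. Astrocyte-like cells, which were not among these 10 classes, had the highest WT level, 182, and 168 and 156 in rd10. Stat3 lies on the minus strand of chromosome 11 from 100886806 to 100939594 and overlaps Stat5a on the opposite strand over 72 bases. Stat5a had 3.31, 3.74 and 2.98 CPM in MG-like cells, and its part in the Stat3 counts was not tested.

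Socs3, the feedback inhibitor of gp130 and JAK, was the most deeply counted member and had the closest levels between the rd10 libraries in MG. It gave 929, 26212 and 19730 UMIs in MG-like cells, or 279.8, 1181 and 1176 CPM. The log2 ratios to WT were 2.08 [1.98 to 2.17] in rd10-vehicle and 2.07 [1.98 to 2.17] in rd10-TMB, and rd10-TMB over rd10-vehicle was −0.01 [−0.03 to 0.02]. Edn2, Lif, Fgf2, Osmr, Il6st and Stat3 had rd10-TMB levels below those of rd10-vehicle with intervals clear of 0, and Socs3, Ednrb and Lifr did not. The difference between Socs3 and the other members was not tested.

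Socs3 was seen in more of the rd10 MG. A Socs3 UMI was found in 30%, 86.5% and 80.7% of MG-like cells, and in 13.1%, 56.5% and 52.3% with cells thinned to 1000 UMIs. In rod-like cells thinned the same way, the background share was 0%, 2.87% and 2.55%. At 2 or more UMIs in the thinned cells, the shares were 4.93%, 29.6% and 28.1%. At 5 or more, they were 0.759%, 2.26% and 2.37%. Among the thinned cells with a Socs3 UMI, the mean was 1.90, 1.95 and 1.99 UMIs per cell in WT, rd10-vehicle and rd10-TMB, which is too near 1 UMI to be read for a change, and the highest cell had 10, 7 and 9. At full depth, the 159, 2156 and 1411 MG-like cells with a Socs3 UMI held 5.84, 12.2 and 13.98 UMIs each on average, in cells whose median total was also higher in rd10.

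**Figure D3:**
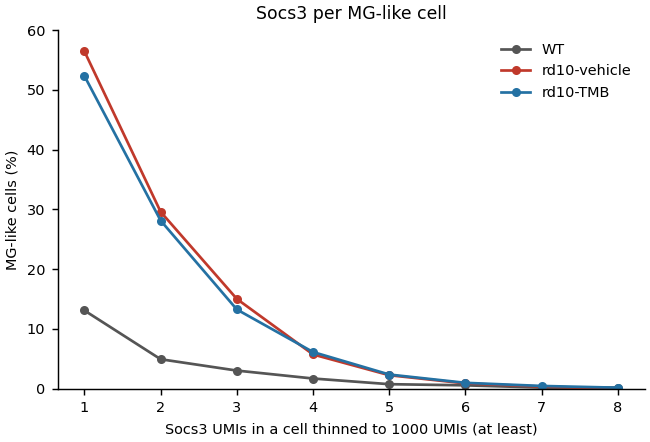
Percentage of MG-like cells (vertical axis) with at least the given number of Socs3 UMIs (horizontal axis) after each cell was thinned to 1000 UMIs, in the 3 libraries. At 1 or more UMIs the WT, rd10-vehicle and rd10-TMB shares were 13.1%, 56.5% and 52.3%, and the 2 rd10 lines ran close together over the whole range.

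Outside MG, Socs3 was also high in astrocytes, pericytes, microglia and endothelium. Endothelial-like cells had 120, 435 and 407 CPM, with log2 ratios of 1.85 and 1.75 to WT and −0.09 between the rd10 libraries. Astrocyte-like cells had 923 CPM already in WT and 1472 and 1548 in rd10, with log2 ratios of 0.67 and 0.74. Pericyte-like cells had 287, 1015 and 1505 CPM, the highest of their values being that of rd10-TMB, and microglia-like cells had 881 in rd10-vehicle and 677 in rd10-TMB. Cone-like cells had 51.2, 83.8 and 51.1 CPM, so that rd10-TMB was near WT at −0.01 and below rd10-vehicle at −0.71.

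Socs3 UMIs of rods and RBCs were few in WT and more common in rd10. Rod-like cells had 3, 38 and 28 UMIs, with a log2 ratio of 4.35 [3.07 to 7.07] in rd10-vehicle over WT. RBC-like cells had 1, 87 and 56 UMIs, with a log2 ratio of 5.05 [3.51 to 11.35]. Per 1000 UMIs of the 12 MG markers, Socs3 gave 24.8 UMIs in MG-like cells of rd10-vehicle, 57.1 in rod-like cells, 68.3 in RBC-like cells and 107 in cone-like cells. All 12 MG markers were seen in rod-like cells, and their summed level there was 272, 774 and 643 CPM. The part of MG RNA in the Socs3 counts of rods and RBCs was not tested.

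The motif TTCNNNGAA, which is its own reverse complement, was searched in RefSeq promoter windows of 300 bases (250 before and 50 after the start). Of all 32851 windows, 8.30% hold it, and of the 27025 genes with such a window, 9.55% do. Each of the 9 members had a window, Lifr had 2, and only the Socs3 window (chr11:117969317-117969616, minus strand) holds the motif, with its first base 154 bases before the start. That window lies inside the annotated span of Socs3, from 117966079 to 117970336 of chromosome 11. Of the 15 genes listed as STAT3 targets, 13 had a window and 2 held the motif, Gfap with its first base at position −2 and Icam1 at position −42. These 2 carry the stricter form TTCCNGGAA, found in 1.15% of windows and 1.35% of genes, and Socs3 does not. With 9.55% of all genes holding TTCNNNGAA, 1 of the 9 members was near the background. A match describes the letters of the window and not a site of binding. The 3 matches are shown with 30 bases of GRCm38.p6 each, 5′ to 3′ on the strand of the gene, with the motif in capitals, at chr11:117969501-117969530 (minus), chr11:102897183-102897212 (minus) and chr9:21015888-21015917 (plus).

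Socs3: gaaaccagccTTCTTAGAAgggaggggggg

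Gfap: atgggggtgcTTCCAGGAAgtcaggggcag

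Icam1: ggcgcgaggtTTCCCGGAAagtggccccga

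Over all 9 members in MG-like cells, 6 were called higher in rd10-vehicle than in WT, Edn2, Lif, Fgf2, Osmr, Stat3 and Socs3, and 1 was lower, Ednrb. Among the 13871 genes tested in this class, 9.78% were called higher and 12.4% lower. The median log2 ratio of the members was 1.18, against −0.07 over all genes. All 9 members had enough UMIs to be called in this comparison. Edn2 and Lif were carried past the minimum by their rd10 counts, since they had 0 and 7 UMIs in the MG-like cells of WT. The members were also chosen with earlier results of these data known, so these counts are a description. With cells thinned to 1000 UMIs, 4 members were higher, Lif, Osmr, Stat3 and Socs3, and 2 were lower, Ednrb and Lifr.

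In rd10-TMB over WT, the calls fell on the same genes, 6 higher and Ednrb lower, with 7.88% of 13473 genes called higher and 11.7% lower. The median log2 ratio of the members was 0.82, against −0.09 over all genes. In thinned cells, 3 members were higher, Osmr, Stat3 and Socs3, and Ednrb was lower, with Edn2 and Lif under 20 UMIs. Edn2 also had fewer than 20 UMIs without the cells that had a Lcn2 UMI. These 2 comparisons share the WT library. In rd10-TMB over rd10-vehicle, 0 members were called higher and 1 lower, Edn2 at −0.76, with 2.36% of 14464 genes called higher and 3.75% lower and with medians of −0.12 for the members and −0.02 for all genes. Without the cells that had a Lcn2 UMI, the Edn2 ratio was −1.63, while the cells with one had 10.2 CPM of Edn2 in rd10-vehicle and 10.8 in rd10-TMB.

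**Figure D4:**
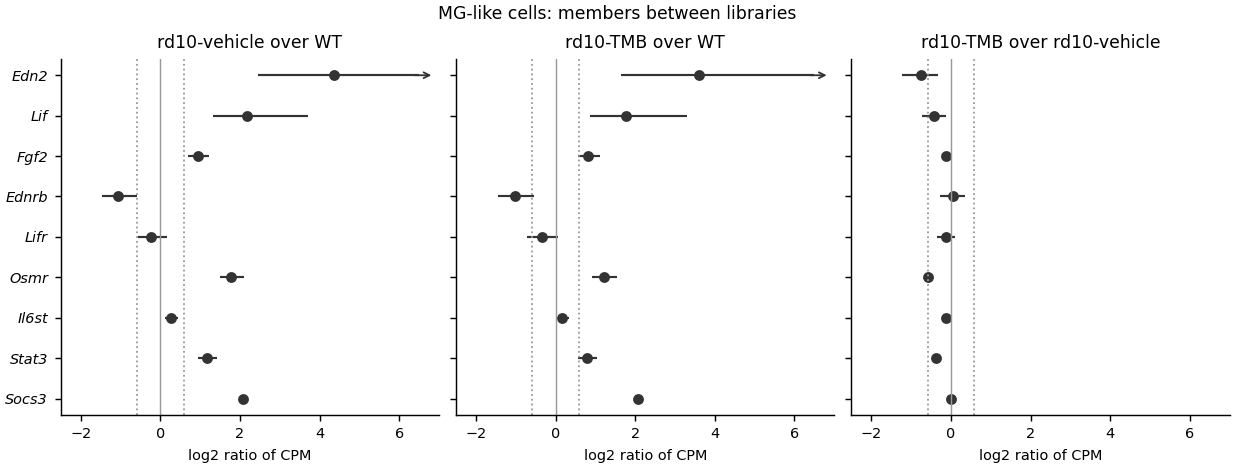
Log2 ratios of the 9 members in MG-like cells for rd10-vehicle over WT, rd10-TMB over WT and rd10-TMB over rd10-vehicle, with exact 95% counting intervals and lines at the 1.5-fold limit. Socs3 stood at 2.08, 2.07 and −0.01, Osmr at 1.78, 1.21 and −0.58, and Ednrb was the 1 member below 0 by more than the limit against WT.

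The WT pool held male and female mice and the rd10 pools female mice only. Taking only WT cells with an Xist UMI and no Y-linked UMI, 245 of the 530 MG-like cells, left 7 members called in each of the comparisons with WT.

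MG-like cells differed among themselves in Lcn2, which encodes lipocalin 2, a secreted protein of reactive glia. The study named it, from these samples, among the MG genes lowered most by TMB. A Lcn2 UMI was seen in 9 of 530 MG-like cells in WT, 653 of 2492 in rd10-vehicle and 300 of 1748 in rd10-TMB. In rd10-vehicle, cells with a Lcn2 UMI had 17.6 CPM of Lif against 7.60 in the cells without, 10.2 of Edn2 against 4.07 and 14.1 of Ednrb against 5.90. The differences were smaller for Stat3, 135 against 96.3, for Socs3, 1355 against 1093, for Osmr, 111 against 92.3, and for Fgf2, 82.6 against 62.7. These 7 genes were higher in the cells with a Lcn2 UMI, and the other members were slightly lower, Lifr with 18.2 against 20.1 and Il6st with 133 against 138. The cells with a Lcn2 UMI had a median of 10153 UMIs against 8175.

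In rd10-TMB, all 9 members were higher in the cells with a Lcn2 UMI, with 15.3 against 5.90 for Lif, 10.8 against 1.26 for Edn2, 14.5 against 7.08 for Ednrb, 116 against 73.1 for Stat3, 1498 against 1073 for Socs3, 77.0 against 62.5 for Osmr, 83.2 against 57.6 for Fgf2, 21.7 against 16.7 for Lifr and 131 against 125 for Il6st. For Lifr and Il6st, the intervals of cells with and without a Lcn2 UMI overlapped in both rd10 libraries. The order of these 2 genes was thus within counting error, and the differences between the cells were not tested. In the cells without a Lcn2 UMI, the Ednrb ratio of rd10-vehicle over WT was −1.57, further from 0 than the −1.06 of all MG-like cells.

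The other genes of these routes were read from lists of 81 genes, of which 76 were in the matrix and 64 had enough UMIs in MG-like cells in rd10-vehicle over WT. Of these 64, 28 were called higher and 3 lower, with a median log2 ratio of 0.40 against −0.07 over all genes, of which 9.78% were called higher and 12.4% lower. In rd10-TMB over WT, 26 were higher and 2 lower of 63, against 7.88% and 11.7% of all genes. In rd10-TMB over rd10-vehicle 0 were higher and 8 lower of 66, against 2.36% and 3.75% of all genes. These shares over all genes are the background of each list of MG-like cells that follows. The 8 were Lcn2, Socs2, Gfap, Serpina3n, Timp1, Bcl3, Myc and Edn1. The lists were chosen with earlier results of these data known, so their counts are a description.

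The listed STAT3 targets were mostly higher in rd10. In MG-like cells, 12 of 15 were called higher in each rd10 library over WT, with median log2 ratios of 1.97 in rd10-vehicle and 1.61 in rd10-TMB, and 6 of 15 were called lower for rd10-TMB over rd10-vehicle, with a median of −0.39. Of all genes, 9.78% and 7.88% were called higher in the comparisons with WT and 3.75% lower between the rd10 libraries. The study named Lcn2 and Gfap from these samples, and the list was chosen with earlier results of these data known. Its counts are therefore not independent evidence of a direction. Timp1, an inhibitor of metalloproteinases, stood at 2.11, 87.1 and 46.5 CPM in WT, rd10-vehicle and rd10-TMB. Gfap, an intermediate filament protein of reactive glia, stood at 16.3, 339 and 223 CPM. Serpina3n, a serine protease inhibitor, stood at 18.7, 325 and 184. These 3 had the highest ratios to WT of all listed genes, and each was called lower for rd10-TMB over rd10-vehicle, whereas Socs3 was not. Of the astrocyte markers, those other than Gfap summed to 11.1, 11.4 and 10.0 CPM in MG-like cells, and Pax2 had 0 UMIs in all libraries.

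**Figure D5:**
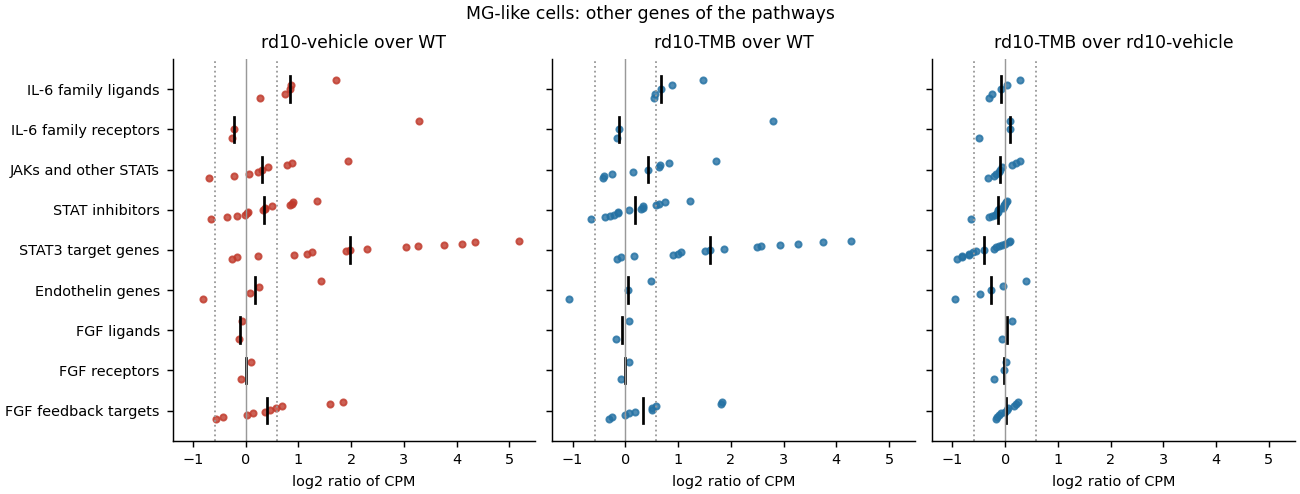
Log2 ratios of the listed pathway genes in MG-like cells, by list, for rd10-vehicle over WT, rd10-TMB over WT and rd10-TMB over rd10-vehicle, with lines at the 1.5-fold limit. The STAT3 target list had medians of 1.97, 1.61 and −0.39, and Timp1, Gfap and Serpina3n were its highest genes.

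Ligands of the IL-6 family were also higher in rd10 MG. Of 5 with enough UMIs, Cntf, Ctf1, Clcf1 and Ebi3 were called higher in rd10-vehicle over WT, and 3 of 5 were in rd10-TMB over WT, against 9.78% and 7.88% of all genes. Cntf, ciliary neurotrophic factor, stood at 67.8, 115 and 108 CPM. Of 3 further receptor chains, only Il6ra, the IL-6 receptor, was called, at least 3.19-fold above the WT limit in rd10-vehicle and at least 2.24-fold in rd10-TMB. Osm, which encodes oncostatin M, the ligand of Osmr, had 0 UMIs in MG-like cells of all libraries. It was named after its values were seen, and gave 51 UMIs in rd10-vehicle (158 CPM) and 25 in rd10-TMB (108 CPM) in microglia-like cells, of which there were 52 and 30. The 6 microglia-like cells of WT gave 0 UMIs and were too few to compare.

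Among the kinases and STATs, 3 of 9 were called higher in rd10-vehicle over WT, Jak3, Stat2 and Stat6, and Stat5b was lower at −0.70. Of 14 inhibitors, Socs1, Cish, Socs5 and Ptpn1 were higher and Pias2 was lower at −0.66. With 9.78% of all genes called higher and 12.4% lower, the 1 lower gene of each list was near the background. Socs1, a relative of Socs3, stood at 5.72, 15.4 and 14.01 CPM and, like Socs3, was near equal in the 2 rd10 libraries, at a log2 ratio of −0.14 [−0.38 to 0.11].

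In the endothelin list, Edn1, the relative of Edn2, was the 1 of 4 genes called higher. It stood at 6.33, 17.7 and 9.18 CPM in MG-like cells, with a log2 ratio of 1.42 in rd10-vehicle over WT and of −0.94 in rd10-TMB over rd10-vehicle, the lowest of all listed genes in that comparison. Ece2, an endothelin-converting enzyme, was called lower at −0.82 on 37 and 9 UMIs. Of the FGF lists, 0 of 2 ligands and 0 of 2 receptors were called, and 3 of 10 feedback genes were, Spry1, Spry4 and Etv4, all higher. Among so few genes, the 9.78% called higher and 12.4% called lower over all genes leave the endothelin and FGF counts without a reading as lists. Spry1, an inhibitor of FGF signalling, stood at 23.2, 71.2 and 82.1 CPM and was thus highest in rd10-TMB.

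The genes most like each member over the 30 profiles were named in the same way as for Edn2. Lif was closest to Eppk1, Tent5b and Flnc, each with an r of 0.99, and Osmr to Tnfrsf1a, Psmb8 and Mical1, each with an r of 0.99. Il6st was closest to Ccn1 at 0.97, Socs3 to Zfp36 at 0.93, Lifr to Nrf1 at 0.84, Fgf2 to Asl at 0.82, Stat3 to Rpl15 at 0.79 and Ednrb to Dusp15 at 0.73. None of the members was among the 3 genes most like another member.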

How the data were processed

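Retinal cells were dissociated with papain and captured by the 10x Genomics 3′ method, 1 library per group. Per the labels and the study's methods, the authors counted reads with Cell Ranger 6.0.1 against the mouse genome build mm10, removed doublets with Scrublet, kept cells with at least 500 genes and clustered with Seurat 3.2.2 and Harmony. As deposited, the expression values are on a natural log scale, ln(1 + UMIs per 10000), and a cell table gives counts of UMIs and genes for each cell. UMIs were recovered from both, and all 32620606 entries came out whole within 0.001. They summed to 18882951, 37002532 and 29192530 in the WT, rd10-vehicle and rd10-TMB libraries, which sets the counting precision.

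UMIs were summed per class and library with python 3.11.15, numpy 2.4.6, scipy 1.17.1 and pandas 2.3.3. Levels have exact Poisson intervals, ratios exact conditional binomial intervals and shares Clopper-Pearson intervals. Log2 ratios add 1 UMI to each library, and their intervals do not. Classes came from the deposited clusters and marker lists, 118 genes in all. Doublet removal was that of the authors, and no caller was run again. The 9 members were all named, other genes only by list, by call, as the 3 highest and lowest in a list comparison or as the 3 most like a member. The members and lists were chosen with earlier results of these data known. Scripts were tested on simulated data. With 1 library per group no p-value was computed. Alternatives covered scaling, cell filters, thinning, pseudocount, minimum count and fold limit.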

Additional observations from a re-analysis of the deposited data

Results flagged for a closer look

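Ednrb stood out because its ratio to WT had opposite signs in different classes. The log2 ratio of rd10-vehicle over WT was higher in amacrine-like than in MG-like cells by 3.33 and than in astrocyte-like cells by 2.87. In the same comparison, cone-like cells exceeded MG-like cells by 2.24 and astrocyte-like cells by 1.78. For rd10-TMB over WT, amacrine-like cells exceeded MG-like cells by 3.30 and astrocyte-like cells by 3.16. Each group was 1 library, and these differences were not tested. They rest on 14, 7 and 7 Ednrb UMIs in amacrine-like cells and on 10, 44 and 28 in cone-like cells of WT, rd10-vehicle and rd10-TMB.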

How the results depend on the processing

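No paired analysis was possible because each group was 1 library. In MG-like cells, 7 members were called in each comparison with WT, and thinning to 1000 UMIs left 4 in rd10-TMB over WT (without Edn2, Lif and Fgf2) and gave 6 in rd10-vehicle over WT (without Edn2 and Fgf2 and with Lifr added as lower). In rd10-TMB over WT, calls also ended for Fgf2 as a mean over cells, for Fgf2 and Stat3 at a 2-fold limit, and for Edn2 and Lif with a minimum of 200 UMIs. In rd10-vehicle over WT, they ended for Fgf2 at a 2-fold limit and for Edn2 with that minimum. In rd10-TMB over rd10-vehicle, 1 member was called, and the count was 2 with a mean over cells, 2 without the deepest 5% of cells, 2 in thinned cells (Lif and Osmr), 0 at a 2-fold limit and 0 with a minimum of 200 UMIs, an alternative chosen after seeing the data. Of the pathway lists, 31 genes were called in rd10-vehicle over WT, and 18 at a 2-fold limit. Edn2 in rods of rd10-vehicle was 127 CPM, and 164 in cells with at least 1000 genes. Of 422 values of single genes, 406 moved by less than their counting interval and 16 by more, with no change of sign among called values. Without MG-like cells that had a Lcn2 UMI, Edn2 of rd10-TMB over rd10-vehicle was −1.63. The causes were not tested. With at most 243 UMIs of Lif and 136 of Edn2 in the MG-like cells of a library, small differences were not detectable at this depth.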
